A study of Mus musculus with 12 samples.

Results

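The 37 genes described here are the protein-coding genes whose symbols begin with Nduf followed by a, b, c, s or v and a digit, the naming pattern of the nuclear-encoded subunits of respiratory complex I. They were picked by symbol from a table of 35275 mouse genes, and all 37 passed the filter on low counts that left 16042 genes for testing. Of these, 35 are subunits of complex I, whereas Ndufa4 is now assigned to complex IV and its paralogue Ndufa4l2 to neither. Ndufab1, the acyl carrier subunit, lies outside the naming pattern, and Ndufb1 was not analysed here. The samples were minced lung tissue of 12 male wild-type C57Bl/6J mice from a geriatrics research centre (NCGG), 3 at each of 3, 6, 12 and 24 months, and the labels name no agent. Poly(A) RNA of each was sequenced as 1 library, so that each library is 1 mouse. Because lung tissue holds many cell types, fewer cells of a type and less RNA per cell cannot be told apart in any value below.

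Complex I, or NADH:ubiquinone oxidoreductase, is the entry point of electrons from NADH into the respiratory chain of the mitochondrion. It is L-shaped. The matrix arm holds the N module, which oxidizes NADH, and the Q module, which passes the electrons along iron-sulfur clusters to ubiquinone. The membrane arm pumps protons, and its core is made of the ND subunits that the mitochondrial genome encodes. Accessory subunits surround this core and are needed for its assembly and stability. Many nuclear genes of the respiratory chain are known targets of the transcription factors NRF1, GABP (an ETS factor), YY1 and the ERR receptors, so their transcripts are often discussed as a regulated set. In the lung, complex I is known for its part in alveolar epithelial energy supply and in redox signalling.

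Gene reads numbered 14720869 to 21244361 per library, and the members took 27795 to 51511 of them. Markers of lung tissue were present at every age, with 16200.0 ± 2485 CPM (reads of a gene relative to library size, scaled with TMM; SD, n = 3) of Sftpc, the surfactant protein of alveolar type 2 cells, at 3 months. Base composition set the 24-month libraries apart: the GC content of the gene models, weighted by reads, was 54.4 to 56.1% at 24 months and 50.4 to 51.8% before. They also had fewer genes with a read, 17533 to 18513 against 19539 to 20625, and 82.8% of all genes tested differed between 24 and 3 months. The TMM factors were 0.521 to 0.826 at 24 months and 1.06 to 1.20 before. A lower factor gives a higher CPM for the same share of reads, so CPM and FPKM at 24 months can differ in direction. The labels name no batch, so age and any difference in library preparation cannot be told apart. The log2 differences and calls of members at 24 months are therefore given both as counted and with an offset. That offset removes from each library the smooth trend of its reads on GC content and length of the gene, fitted across genes. The median of all genes at 24 against 3 months was -0.29 on the log2 scale without the offset, -0.17 with another scaling of the libraries (RLE), and 0.00 with the offset.

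Per unit of gene length, the members covered a wide range. At 3 months their mean FPKM (fragments relative to gene length and library size) ran from 1.73 to 174, with a median of 46.1. The highest was Ndufa4, at 174 ± 30.5 FPKM (SD, n = 3), followed by Ndufa7, an accessory subunit of the matrix arm, at 122 ± 23.0, and Ndufa6, an accessory subunit beside the acyl carrier, at 102 ± 20.3. By mean ± SD each of these overlapped the next. Of the core subunits, Ndufs7 stood at 56.7 ± 10.5 FPKM, Ndufv1 at 50.6 ± 7.19, Ndufs3 at 44.8 ± 6.98, Ndufs8 at 43.3 ± 7.91, Ndufv2 at 41.0 ± 6.39 and Ndufs1 at 21.4 ± 1.71. Neighbours in this order from Ndufs7 to Ndufv2 did not differ beyond their spread, and Ndufs1 lay below these. Ndufb2, a small membrane-arm subunit, was the lowest member at all 4 ages, with 1.73 ± 0.127 FPKM at 3 months. The deposited gene length enters every FPKM value. For Ndufb7 it was 4435 bases although its coding sequence has 411, and for Ndufb2 it was 4371 against 315. By mean CPM Ndufb2 was also the lowest member, at 6.48 at 3 months, but nearer to the next, Ndufb6 at 10.6. The order at 24 months, by FPKM as deposited and with no offset, was different. Ndufa7 led with 137 ± 10.1 FPKM, then Ndufs7 with 124 ± 10.3 and Ndufv1 with 124 ± 11.2, while Ndufa4 was in place 13 of 37 with 43.8 ± 13.8.

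As a sum, the nuclear members were highest at 12 months, whereas the transcripts of their mitochondrially encoded partners were lowest at 24 months. The 37 genes took 0.218, 0.159 and 0.168% of gene reads in the 3 mice at 3 months, 0.200, 0.185 and 0.181% at 6 months, 0.242, 0.259 and 0.273% at 12 months, and 0.200, 0.182 and 0.186% at 24 months. All 3 libraries of 12 months lay above all the other libraries. The difference from 3 months was 0.0764 percentage points, and no 3 against 3 comparison can give an exact two-sided permutation p below 0.1, which is the value here (0.3 after Benjamini-Hochberg adjustment over 6 such tests). At 24 against 3 months the difference was 0.0079 percentage points, within the spread of the 3-month mice (exact permutation p = 0.7, adjusted 0.96). Summed as FPKM, it was -0.0441 percentage points at 24 against 3 months, with an exact permutation p of 0.1. At 6 months the share differed from that at 3 months by 0.00681 percentage points (exact permutation p = 0.8, adjusted 0.96).

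The 7 mt-Nd genes, which encode the proton-pumping core of the membrane arm, took between 0.695 and 0.840% of gene reads in the 3-month mice, between 0.785 and 0.919% in the 6-month mice, between 0.811 and 1.25% in the 12-month mice and between 0.207 and 0.321% in the 24-month mice. Every 24-month library was below every younger one. This was not particular to the mt-Nd genes. All genes of the mitochondrial genome together, these 7 included, took 0.443 to 0.629% at 24 months and 1.65 to 3.12% before. The log2 ratio of mt-Nd reads to nuclear member reads was 2.11 ± 0.38 (SD, n = 3) at 3 months, 2.20 ± 0.08 at 6 months, 1.86 ± 0.29 at 12 months and 0.54 ± 0.35 at 24 months. That is a difference of -1.57 between 24 and 3 months, with no overlap of the mice and the smallest exact permutation p the design allows, 0.1 (adjusted 0.3). Tested gene by gene, 3 of the 7 were lower at 24 than at 3 months and none higher without the offset. Of all genes 44.6% were lower and 38.2% higher. With the offset, 5 of the 7 were higher and none lower (all genes, 29% and 27.2%). mt-Nd4 illustrates this reversal: 1657, 1487 and 1626 CPM at 3 months and 754, 900.0 and 631 at 24 months. Its log2 difference was -1.06 ± 0.22 (SE), adjusted p = 0.000375 as counted, and 0.81 ± 0.12 (SE), adjusted p = 4.8e-05 with the offset.

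**Figure D1:**
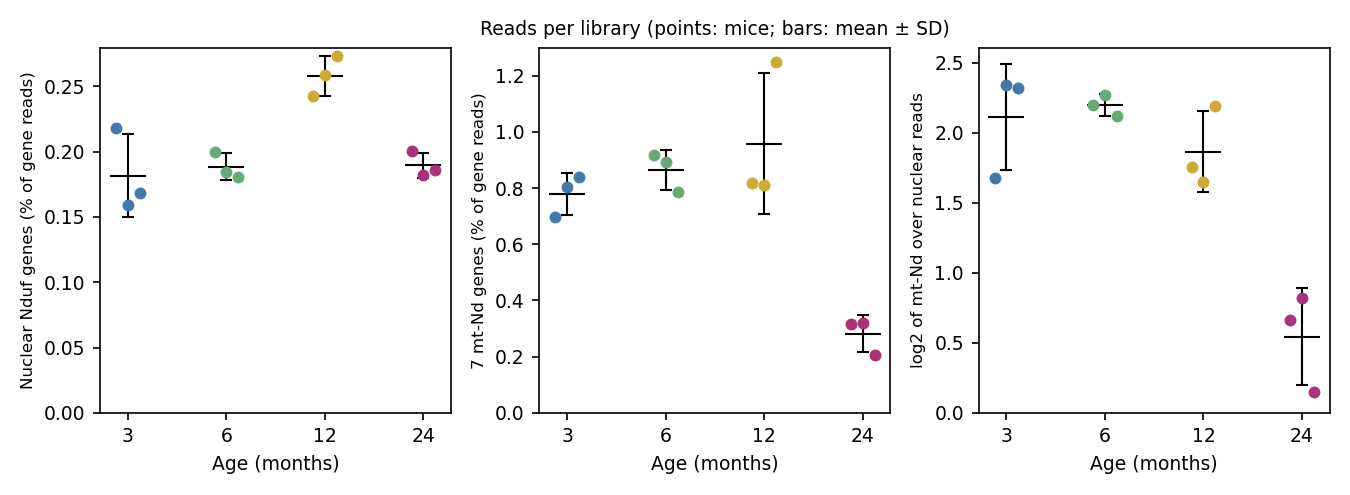
Share of gene reads (%) on the 37 nuclear Nduf genes, share on the 7 mt-Nd genes, and log2 ratio of the latter to the former, by age in months; points are mice and bars the mean ± SD. The nuclear share is highest in the 3 mice of 12 months (0.242 to 0.273%) and the mt-Nd share lowest in the 3 mice of 24 months (0.207 to 0.321%).

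Between 3 and 6 months no member passed the edgeR test at an adjusted p of 0.05, nor did any at an unadjusted p under 0.05, and the share of all genes called was 0%. With the offset no member was called either, beside 0.00627% of all genes, and 2 had an unadjusted p under 0.05. DESeq2 and limma also called no member. The log2 differences lay between -0.31 (Ndufb2) and 0.25 (Ndufa10), with a median of 0.07. In none of the 37 did the 3 mice of 6 months lie wholly above or wholly below those of 3 months, as they did in 5.58% and 5.28% of all genes.

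At 12 against 3 months, 15 of the 37 members rose and none fell, against a background of 6.3% of all genes higher and 8.87% lower (15.2% in all). The differences of 35 of 37 were positive, with a median of 0.62 on the log2 scale beside -0.02 for all genes. The exceptions were Ndufb2 and Ndufs1. In 31 members every 12-month mouse was above every 3-month mouse, and in 1 member, Ndufb2, every 12-month mouse was below; over all genes these shares were 24% and 20.4%. The 15 that rose as counted include 14 of the 28 accessory subunits and 1 of the 7 core subunits, Ndufs8. With the offset 5 accessory subunits rose and 2 fell, and 2 core subunits rose and none fell (all genes, 9.05% and 9.35%). Whether these shares differ was not tested.

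As counted the rises were small and alike in size. Ndufb4, an accessory subunit of the distal membrane arm, measured 25.1, 15.1 and 17.9 CPM at 3 months and 32.2, 35.9 and 42.8 at 12 months, a log2 difference of 0.93 ± 0.21 (SE), adjusted p = 0.0118, and 0.49 with the offset (adjusted p = 0.0268). Ndufc2, a subunit of the membrane arm, measured 59.1, 37.6 and 44.5 CPM at 3 months and 73.5, 81.5 and 108 at 12 months (0.90 ± 0.21 (SE), adjusted p = 0.0151), but with the offset its difference was -0.0053 (adjusted p = 0.983). Ndufa10, an accessory subunit related to nucleoside kinases, measured 59.5, 47.1 and 50.5 CPM at 3 months and 85.4, 97.9 and 105 at 12 months (0.87 ± 0.18 (SE), adjusted p = 0.00915), and with the offset it rose by 0.78 (adjusted p = 0.00673). In each of these genes the 3 mice of 12 months were above the 3 of 3 months, and 3-month mouse 1 was the highest of its age. Ndufa7 rose by 0.86, Ndufs8, which carries iron-sulfur clusters of the Q module, by 0.84, Ndufa12 of the matrix arm by 0.83, Ndufb11 of the distal membrane arm by 0.76 and Ndufa11 by 0.76. The other 7 that rose were Ndufa3, Ndufa9, Ndufb9, Ndufc1, Ndufs5, Ndufs6 and Ndufv3, by 0.59 to 0.75. Of these last 12, Ndufs8, Ndufa9 and Ndufc1 also rose with the offset and the others were not called. Reads of Ndufa11, Ndufb4 and Ndufs6 are uncertain because each has a near copy by name in the annotation (Ndufa11b, Ndufb4c and Ndufs6b).

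The calls at 12 months depended on single libraries. The 3-month mouse 1 was the highest of its age for 36 of the 37 members, as it was for 43.5% of all genes. Without it 23 members rose, beside 6.64% of all genes. Without 3-month mouse 2 or mouse 3, by contrast, no member was called (0 of 37; 18 and 22 at an unadjusted p under 0.05, all higher), while 0.443% and 0.809% of all genes were called higher. Without 12-month mouse 1 the count was 9, beside 2.61% of all genes, and without 12-month mouse 2 it was 4, beside 1.5%. DESeq2 gave 25 higher and 1 lower, beside 9.87% and 11.9% of all genes. The members are also short: 20 of them have a gene length under 1000 bases, and the 1357 tested genes under that length had a median difference of 0.49 at 12 against 3 months, beside -0.06 for longer genes. With the offset on GC content and length 7 members rose and 2, Ndufa1 and Ndufa2, fell, beside 9.05% and 9.35% of all genes (18.4% in all), and the median became 0.12. With GC content and length from principal transcripts 9 rose and 2 fell, beside 9.91% and 9.98% (19.9% in all). In a fit of the 9 libraries up to 12 months 31 rose and 1 fell, beside 19% and 17.1%. With an offset on GC content alone 22 rose, beside 11.1% of all genes. The 5 that rose as counted and with both offsets on GC content and length were Ndufa9, Ndufa10, Ndufb4, Ndufc1 and Ndufs8. The share of all genes that rose in all 3 fits is not given here.

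**Figure D2:**
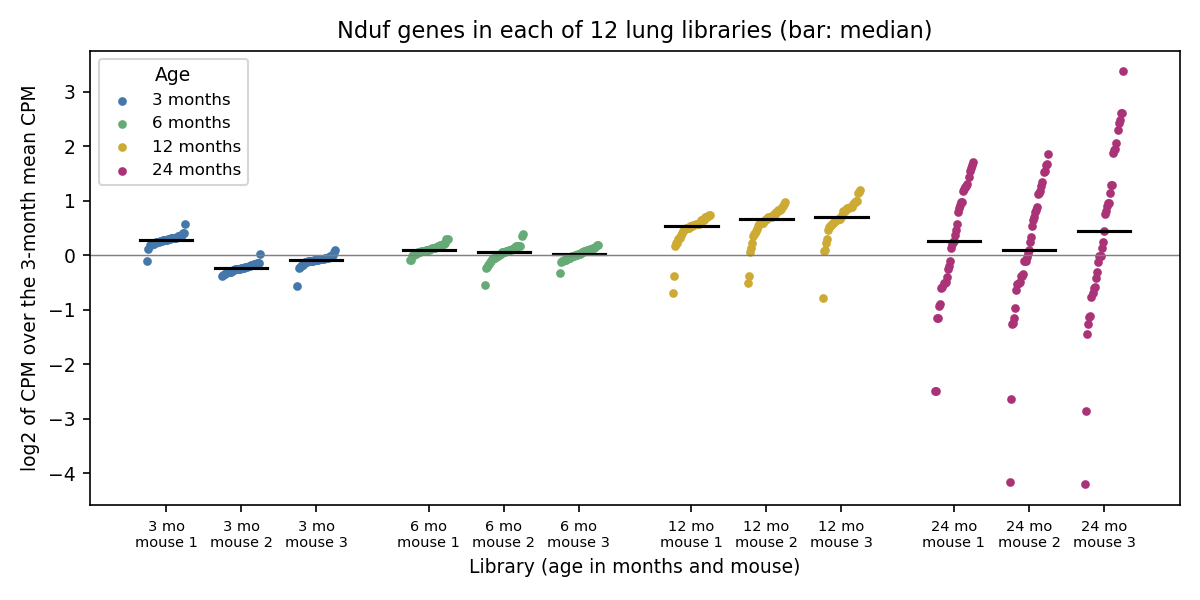
Each point is 1 of the 37 genes in 1 library, as the log2 of its CPM over its mean CPM at 3 months; libraries are ordered by age in months and bars are medians over genes. Most points of the 12-month libraries lie above 0, and those of the 24-month libraries fan out in both directions, the lowest being Ndufb2 and the highest Ndufa4l2.

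At 24 against 3 months the members parted in both directions; the 3-month mice are the same as in the comparisons above. There were 17 members higher (background 38.2% of all genes) and 11 lower (background 44.6%), and 9 were not called. With 82.8% of all genes called, the number of members called is close to what any gene showed. The differences ran from -3.33 for Ndufb2 to 2.47 for Ndufa4l2, with a median of 0.35 beside -0.29 for all genes. The mice of the 2 ages did not overlap in 17 members in the higher direction and 11 in the lower (38.6% and 45.8% of all genes). With the offset 10 members were higher and 16 lower (background 29% and 27.2%, 56.2% in all), with a median of -0.15 beside 0.00 for all genes. When GC content and length were taken from the principal transcript of each gene, 11 were higher and 15 lower (29.7% and 27%, 56.7% in all), with a median of 0.07.

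The same call as counted, with the offset and with the offset from principal transcripts was found in 12 members. The shares of all genes that kept or changed a call are not given here, so the counts in this paragraph have no background. Higher in all 3 were Ndufa8, Ndufa10, Ndufb8, Ndufs3, Ndufv1 and Ndufa4l2. Lower in all 3 were Ndufa1, Ndufa2, Ndufa4, Ndufa5, Ndufa6 and Ndufs1. The offset turned 4 of the 17 higher members into lower ones and 2 of the 11 lower members into higher ones, and it left 7 and 3 without a call.

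**Figure D3:**
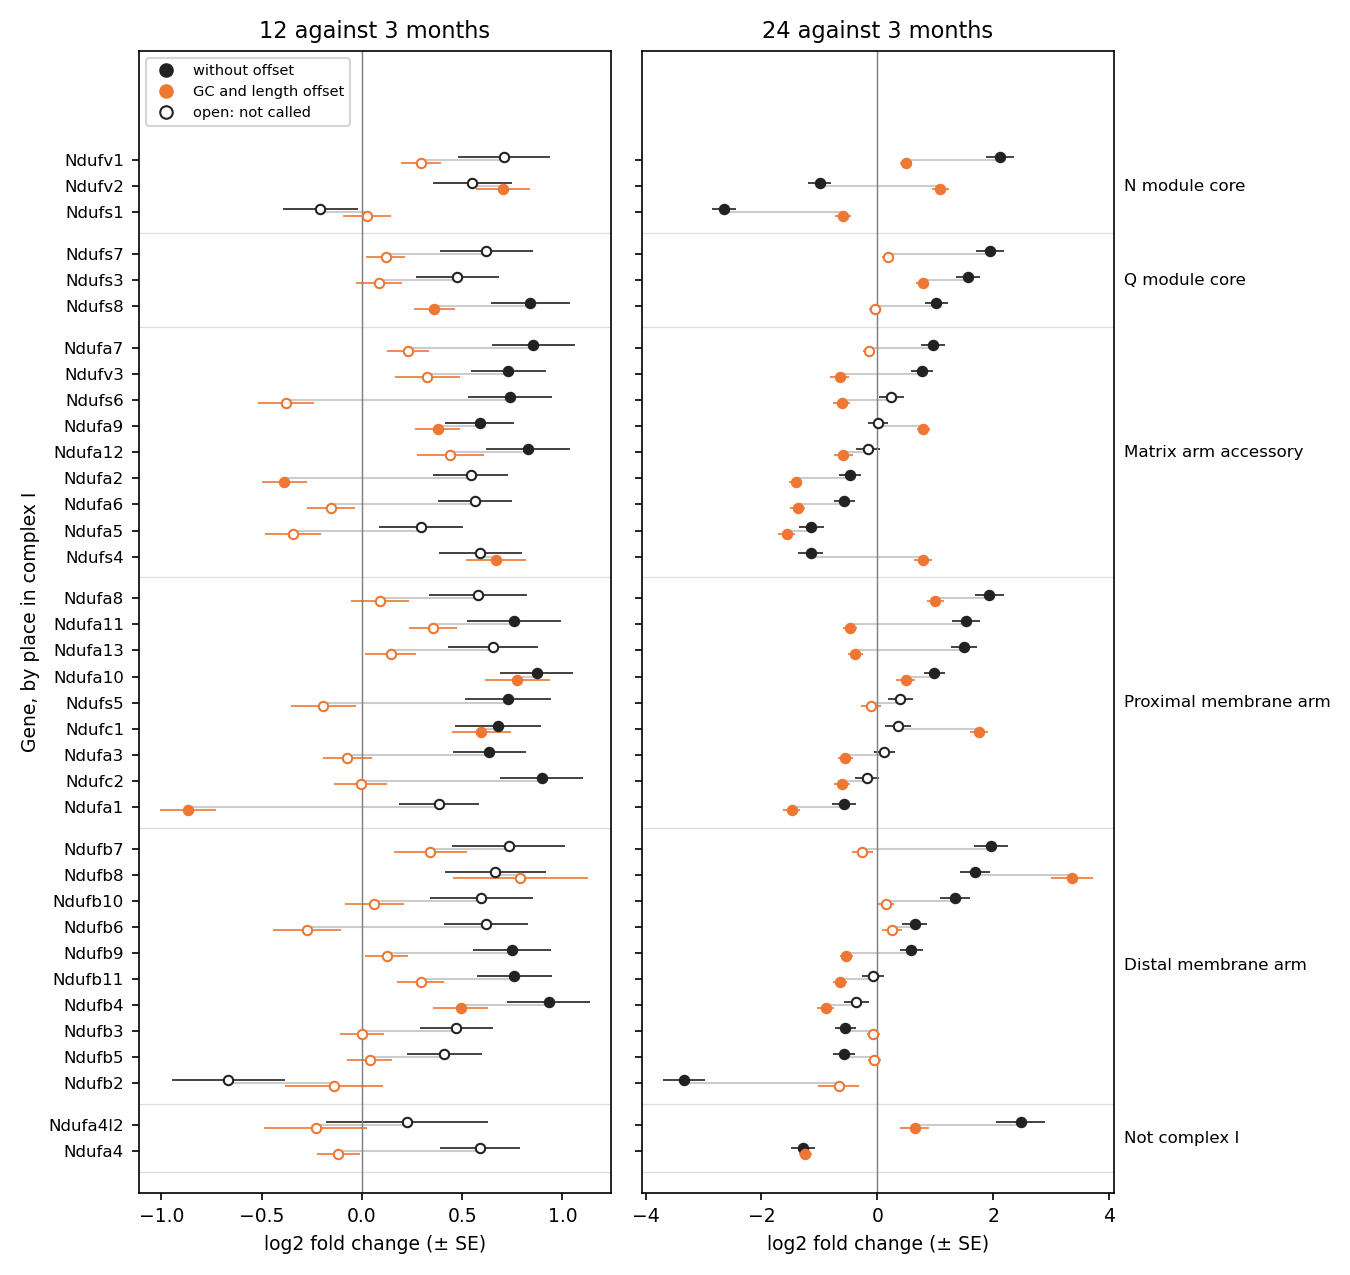
Log2 fold change (± SE) of 36 of the 37 genes at 12 against 3 months and at 24 against 3 months, grouped by place in complex I; black is as counted, orange with the GC and length offset, and filled points passed an adjusted p of 0.05. At 12 months 34 of the black points lie right of 0, and at 24 months the colours disagree in sign for genes such as Ndufv2, Ndufs4, Ndufa11 and Ndufb7.

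Of the N module core 1 subunit rose and 2 fell as counted, and 2 rose and 1 fell with the offset. Over all genes 38.2% rose and 44.6% fell as counted at 24 against 3 months, and 29% and 27.2% with the offset. Ndufv1 (chr19:4007497-4012806, mm10), which binds NADH and the flavin that takes its electrons, measured 84.5, 64.0 and 67.2 CPM at 3 months, 78.2, 81.1 and 79.7 at 6 months, 119, 127 and 107 at 12 months, and 235, 259 and 437 at 24 months. All 24-month mice lay above all the others, and mouse 3 was the highest of them. The log2 difference from 3 months was 2.11 ± 0.24 (SE), adjusted p = 1.11e-06, and 0.49 ± 0.10 (SE), adjusted p = 0.000785 with the offset. Ndufv2 (chr17:66078795-66101559), which carries an iron-sulfur cluster and sits against Ndufv1, measured 63.7, 45.1 and 53.5 CPM at 3 months, 56.9, 55.1 and 51.0 at 6 months, 67.7, 71.9 and 98.5 at 12 months, and 29.0, 27.6 and 24.7 at 24 months. Here all 24-month mice lay below all the others. As counted Ndufv2 fell by 1.00 ± 0.20 (SE), adjusted p = 0.000262, and with the offset it was higher by 1.09 ± 0.14 (SE), adjusted p = 1.89e-05. Ndufs1 (chr1:63143596-63176833), the largest subunit and a carrier of iron-sulfur clusters, measured 52.5, 43.1 and 50.3 CPM at 3 months, 51.4, 45.2 and 46.6 at 6 months, 37.4, 37.1 and 52.1 at 12 months, and 8.64, 7.85 and 6.67 at 24 months. It fell in both fits, by 2.65 ± 0.21 as counted (adjusted p = 6.21e-08) and by 0.59 ± 0.13 with the offset (adjusted p = 0.00163).

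The transcripts of Ndufv1 and Ndufv2, whose proteins work side by side at the entry of the chain, differ in base composition, with 56.6% GC in the former and 42.0% in the latter. The last 180 bases of each coding sequence, from the mm10 genome and the GENCODE M21 annotation, are shown 5′ to 3′ with G and C in capitals, because they make this contrast visible. They hold 60.0% GC in Ndufv1 and 49.4% in Ndufv2.
Ndufv1: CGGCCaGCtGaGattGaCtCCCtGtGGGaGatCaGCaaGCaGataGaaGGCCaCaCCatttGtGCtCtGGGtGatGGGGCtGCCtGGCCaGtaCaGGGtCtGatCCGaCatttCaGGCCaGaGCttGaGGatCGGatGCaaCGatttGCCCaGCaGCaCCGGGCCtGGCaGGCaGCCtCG
Ndufv2: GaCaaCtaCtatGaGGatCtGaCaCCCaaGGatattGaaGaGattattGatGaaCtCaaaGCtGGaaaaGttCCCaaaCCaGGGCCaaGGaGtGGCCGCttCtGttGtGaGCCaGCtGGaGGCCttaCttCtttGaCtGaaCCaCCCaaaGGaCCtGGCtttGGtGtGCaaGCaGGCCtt
The runs of lower-case letters in Ndufv2 mark its stretches of A and T.

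Of the Q module core, Ndufs3, Ndufs7 and Ndufs8 rose as counted, and Ndufs3 of these also with the offset. Ndufs7 (chr10:80249121-80256794), which holds the last iron-sulfur cluster before ubiquinone, measured 58.4, 42.7 and 42.0 CPM at 3 months, 49.7, 48.2 and 47.4 at 6 months, 68.9, 82.6 and 68.3 at 12 months, and 144, 149 and 257 at 24 months. The log2 difference at 24 against 3 months was 1.94 ± 0.24 (SE), adjusted p = 2.25e-06, and 0.18 ± 0.10 (SE), adjusted p = 0.132 with the offset. Ndufs3 (chr2:90894634-90904827), a core subunit without a cluster of its own, measured 47.6, 34.4 and 38.3 CPM at 3 months, 43.0, 43.5 and 42.7 at 6 months, 58.2, 59.9 and 49.4 at 12 months, and 99.6, 102 and 154 at 24 months. It rose by 1.56 ± 0.21 as counted and by 0.78 ± 0.12 with the offset (adjusted p = 5.36e-06 and 6.53e-05). Ndufs8 (chr19:3908870-3912717) measured 43.5, 29.9 and 33.7 CPM at 3 months and 67.6, 61.7 and 87.1 at 24 months. By CPM all 24-month mice were above the 3-month mice, and the log2 difference was 1.01 ± 0.20 (SE), adjusted p = 0.000204. With the offset it was -0.04 ± 0.10 (SE), adjusted p = 0.738. By FPKM as deposited these 2 ages overlapped for Ndufs8, with 52.2, 37.3 and 40.3 at 3 months and 57.9, 49.1 and 47.1 at 24 months.

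Of the 9 accessory subunits of the matrix arm, 2 rose and 4 fell as counted (all genes, 38.2% and 44.6%). With the offset 2 rose and 6 fell (all genes, 29% and 27.2%). Ndufa5, at the base of the arm, measured 30.1, 19.0 and 21.5 CPM at 3 months, 23.3, 20.2 and 22.3 at 6 months, 26.4, 25.8 and 34.6 at 12 months, and 12.3, 9.89 and 9.84 at 24 months. Every 24-month mouse was below every younger one, and the fall was 1.14 ± 0.22 as counted (adjusted p = 0.000163) and 1.56 ± 0.15 with the offset (adjusted p = 1.48e-06). Ndufa6, a LYR-motif protein that docks the acyl carrier, measured 60.9, 43.1 and 43.2 CPM at 3 months, 66.8, 68.6 and 82.2 at 12 months, and 32.6, 33.9 and 32.8 at 24 months, and Ndufa2, with a thioredoxin-like fold, 53.6, 34.5 and 40.8 CPM at 3 months, 57.2, 65.1 and 65.6 at 12 months, and 30.3, 30.3 and 32.1 at 24 months. Both were lowest at 24 months, with falls from 3 months of 0.57 and 0.48 as counted and of 1.38 and 1.41 with the offset. Ndufs4, an accessory subunit whose loss causes Leigh syndrome in people and a like disease in mice, measured 35.6, 23.5 and 28.2 CPM at 3 months, 34.1, 30.4 and 31.0 at 6 months, 37.9, 37.4 and 56.5 at 12 months, and 13.1, 13.0 and 13.3 at 24 months. It fell by 1.15 ± 0.21 as counted (adjusted p = 0.000131), and its difference with the offset was 0.78 ± 0.16 (SE), adjusted p = 0.000846. Ndufa7 and Ndufv3 rose as counted, by 0.95 and 0.78. By FPKM as deposited Ndufa7 stood at 122 ± 23.0 (SD, n = 3) at 3 months and 137 ± 10.1 at 24 months. Ndufv3 stood at 32.4 ± 5.83 and 33.4 ± 8.22. With the offset Ndufa7 was at -0.15 and not called, and Ndufv3, a loosely held subunit near the flavin site, fell by 0.65. Ndufa9, Ndufa12 and Ndufs6 were not called as counted. With the offset Ndufa9 was higher by 0.79, and Ndufa12 and Ndufs6 fell by 0.59 and 0.61.

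On the proximal membrane arm 4 of 9 accessory subunits rose and 1 fell as counted (all genes, 38.2% and 44.6%). With the offset 3 rose and 5 fell (all genes, 29% and 27.2%). Ndufa8, a CHCH-domain protein of the intermembrane space, measured 46.4, 31.0 and 35.1 CPM at 3 months, 38.6, 38.9 and 35.4 at 6 months, 54.4, 59.5 and 54.0 at 12 months, and 109, 109.9 and 209 at 24 months. It was above all younger mice in every 24-month mouse, by 1.93 ± 0.25 (SE), adjusted p = 4.01e-06 against 3 months, and 1.00 ± 0.15 (SE), adjusted p = 5.47e-05 with the offset. Ndufa10 measured 59.5, 47.1 and 50.5 CPM at 3 months, 85.4, 97.9 and 105 at 12 months, and 103, 93.4 and 115 at 24 months, with 12-month and 24-month mice overlapping. Its difference at 24 against 3 months was 0.98 ± 0.18 (SE), adjusted p = 0.000124, and 0.49 ± 0.16 (SE), adjusted p = 0.0193 with the offset. By FPKM as deposited these 2 ages overlapped for Ndufa10, with 34.1, 28.0 and 28.8 at 3 months and 41.9, 35.4 and 29.6 at 24 months. Ndufa1, an X-linked subunit of a single membrane helix, measured 31.1, 22.4 and 23.3 CPM at 3 months, 29.9, 29.9 and 40.5 at 12 months, and 18.0, 18.2 and 15.1 at 24 months. It fell by 0.58 as counted and by 1.48 with the offset between 3 and 24 months, and by 0.868 as counted without 3-month mouse 3. Ndufa11 and Ndufa13 rose as counted, by 1.53 and 1.49, and with the offset fell by 0.47 and 0.38. For Ndufa11 the offset from the principal transcript gave 0.15, not called (adjusted p = 0.277). Ndufc1 was not called as counted (0.35) and was higher by 1.76 with the offset.

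On the distal membrane arm 5 of 10 rose and 3 fell as counted (all genes, 38.2% and 44.6%). With the offset 1 rose and 3 fell (all genes, 29% and 27.2%). Ndufb7, a CHCH-domain subunit, measured 61.8, 38.0 and 44.7 CPM at 3 months and 130.0, 138 and 293 at 24 months, and Ndufb8 36.2, 27.3 and 30.5 CPM at 3 months and 75.8, 71.0 and 154 at 24 months. Mouse 3 of 24 months was the highest of its age in both. Ndufb7 rose by 1.96 ± 0.29 as counted (adjusted p = 1.31e-05) and was not called with the offset, at -0.26 ± 0.18 (SE), adjusted p = 0.24. With the offset from its principal transcript Ndufb7 was higher by 0.37 ± 0.13 (SE), adjusted p = 0.0275. Ndufb8 rose by 1.68 as counted and by 3.35 with the offset, and the size of the latter rests on the transcript used. Its longest coding transcript has 46.9% GC and 2142 bases and its principal one 55.3% and 680, and with the latter the rise was 0.73 ± 0.16. Ndufb2 measured 6.00, 6.55 and 6.89 CPM at 3 months, 6.11, 4.44 and 5.17 at 6 months, 3.98, 4.53 and 3.74 at 12 months, and 1.15, 0.364 and 0.351 at 24 months. It was lower in every 24-month mouse, by 3.33 ± 0.36 as counted (adjusted p = 7.62e-07), and was not called with the offset (-0.67 ± 0.36 (SE), adjusted p = 0.125). Ndufb3 and Ndufb5 fell by 0.55 and 0.58 as counted, with -0.07 and -0.06 with the offset, neither called. Ndufb4 and Ndufb11 were not called as counted and fell by 0.89 and 0.65 with the offset.

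The 2 genes named Nduf that are not complex I subunits moved apart. Ndufa4 (chr6:11900373-11907446), a subunit of cytochrome c oxidase, measured 88.9, 63.0 and 67.9 CPM at 3 months, 84.0, 69.7 and 74.6 at 6 months, 91.3, 106 and 134 at 12 months, and 32.9, 30.7 and 26.9 at 24 months. All 24-month mice were below all younger mice. The fall from 3 months was 1.28 ± 0.21 as counted (adjusted p = 3.14e-05), 1.24 ± 0.11 with the offset (adjusted p = 9.52e-07) and 0.77 ± 0.11 with the offset from the principal transcript (adjusted p = 3.43e-05). Ndufa4l2 (chr10:127514939-127517152), known as a gene induced in hypoxia, measured 26.3, 14.7 and 11.8 CPM at 3 months, 16.6, 22.9 and 16.5 at 6 months, 24.9, 18.3 and 18.6 at 12 months, and 55.1, 56.3 and 182 at 24 months. The 24-month mice were above all the others, and mouse 3 stood far above mice 1 and 2. Its difference was 2.47 ± 0.42 (SE), adjusted p = 5.42e-05, and 1.66 (adjusted p = 3.18e-05) without 24-month mouse 3. With the offset it was 0.64 ± 0.25 (SE), adjusted p = 0.0423.

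Their coding sequences are shown whole, 5′ to 3′ with G and C in capitals, since 2 related genes of much the same size moved in opposite directions. Of 241 aligned bases 168 were identical (69.7%), and the coding sequence of Ndufa4 holds 48.8% GC against 55.2% in Ndufa4l2.
Ndufa4: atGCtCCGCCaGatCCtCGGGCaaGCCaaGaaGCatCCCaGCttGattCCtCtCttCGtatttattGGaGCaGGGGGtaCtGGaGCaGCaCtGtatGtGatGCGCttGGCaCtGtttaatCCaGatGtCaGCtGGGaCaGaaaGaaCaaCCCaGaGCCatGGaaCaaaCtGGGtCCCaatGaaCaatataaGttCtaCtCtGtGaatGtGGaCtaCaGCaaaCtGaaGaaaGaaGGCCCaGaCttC
Ndufa4l2: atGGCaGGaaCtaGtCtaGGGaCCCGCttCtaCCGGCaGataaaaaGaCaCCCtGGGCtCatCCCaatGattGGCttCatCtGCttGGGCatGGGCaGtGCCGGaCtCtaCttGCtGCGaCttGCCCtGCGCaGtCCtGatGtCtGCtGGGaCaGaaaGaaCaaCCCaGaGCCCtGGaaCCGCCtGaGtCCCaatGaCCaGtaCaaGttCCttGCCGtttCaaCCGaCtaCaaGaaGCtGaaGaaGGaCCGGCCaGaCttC
The capitals are denser along Ndufa4l2.

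**Figure D4:**
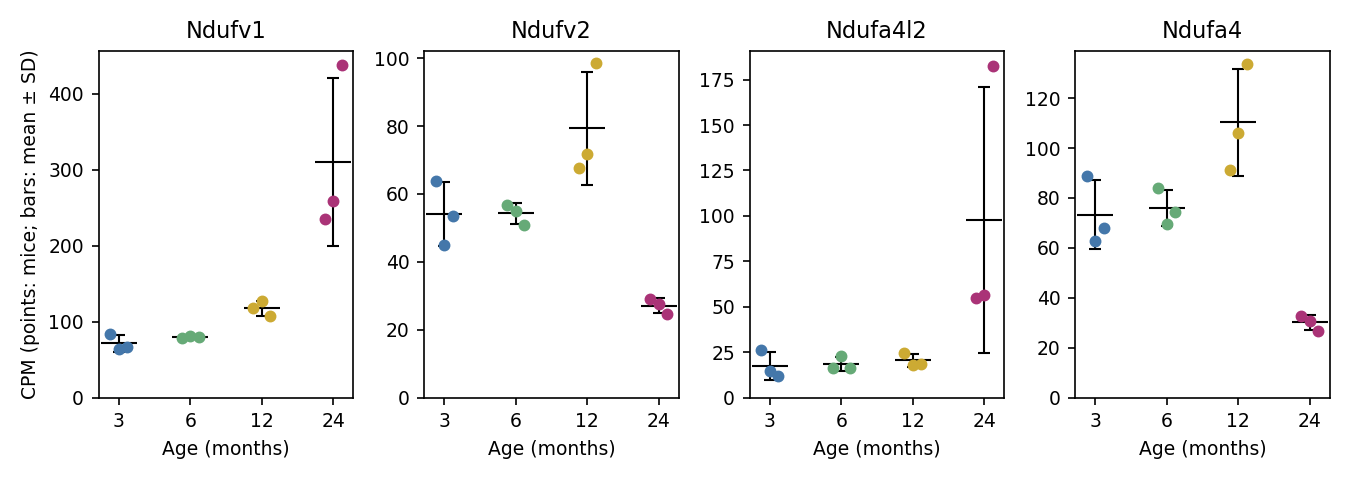
CPM of Ndufv1, Ndufv2, Ndufa4l2 and Ndufa4 by age in months, as counted without the offset; points are mice and bars the mean ± SD. Ndufv1 and Ndufa4l2 are highest at 24 months and Ndufv2 and Ndufa4 lowest, in all 3 mice.

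Over the 37 members the log2 difference at 24 against 3 months followed GC content. Spearman's rho across the genes was 0.771 as counted and -0.0107 with the offset. The offset is built to remove this trend, so its loss is not a separate result. The genes share the same 6 libraries, so these are descriptions. Of the 15 members under 50% GC, 2 were higher and 8 lower as counted, and of the 22 others 15 were higher and 3 lower (all genes, 38.2% and 44.6%). With the offset these counts were 5 and 5, and 5 and 11 (all genes, 29% and 27.2%). Neither rho nor the shares by GC content are given here for all genes. The relation is therefore not shown to be particular to the members. Ndufb8 was the member under 50% with the largest rise, and its principal transcript has 55.3%.

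**Figure D5:**
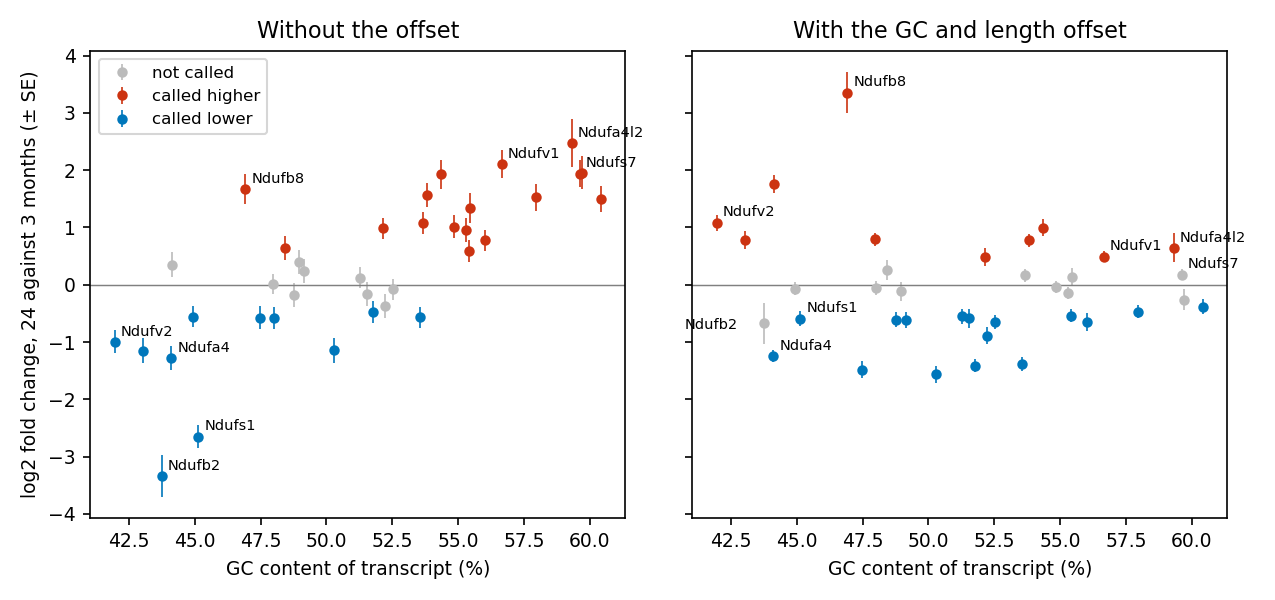
Log2 fold change (± SE) at 24 against 3 months of the 37 genes against the GC content (%) of the longest coding transcript, as counted (left) and with the GC and length offset (right); red points were called higher, blue lower, grey not called. The rising trend on the left (Spearman's rho 0.771) is absent on the right (-0.0107), where the offset is built to remove it.

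From 12 to 24 months 11 members were higher and 18 lower, beside 37.3% and 42.5% of all genes (79.7% in all), with a median of -0.33 (all genes, -0.20). With the offset 8 were higher and 18 lower, beside 22% and 20.3% (42.3% in all), with a median of -0.38 (all genes, 0.01). From principal transcripts the counts were 8 and 16, beside 21.9% and 20.1% (42% in all). The mice did not overlap in 11 members in the higher direction and 18 in the lower, as in 37.2% and 42.8% of all genes. The members lower in all 3 fits numbered 11: Ndufa1, Ndufa2, Ndufa3, Ndufa4, Ndufa5, Ndufa6, Ndufa12, Ndufb4, Ndufb11, Ndufc2 and Ndufs1. Those higher in all 3 were Ndufa8, Ndufb8, Ndufs3 and Ndufa4l2. The shares of all genes with the same call in all 3 fits are not given here. Ndufb4, the gene with the largest rise to 12 months, measured 32.2, 35.9 and 42.8 CPM at 12 months and 14.7, 14.8 and 15.7 at 24 months, a fall of 1.29 ± 0.21 as counted and 1.38 ± 0.15 with the offset (adjusted p = 4.98e-05 and 7.01e-06). Ndufs1 fell by 2.44 as counted and 0.62 with the offset, and Ndufa4 by 1.87 and 1.12. The 12-month libraries enter both this comparison and the one against 3 months, so the 2 are not independent. By mean CPM, 19 members were highest at 12 months, 16 at 24 months, 2 at 3 months and none at 6 months. Over all tested genes 14.3% were highest at 12 months and 43.1% at 24 months.

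The genes that serve complex I without being part of it gave a mixed picture. Of 16 assembly factors, 4 were higher and 7 lower at 24 against 3 months as counted (all genes, 38.2% and 44.6%). Their median was -0.42. With the offset 6 were higher and 2 lower (all genes, 29% and 27.2%), with a median of 0.37. Tmem126b, an assembly factor of the membrane arm, measured 17.9, 16.7 and 18.2 CPM at 3 months and 2.39, 2.25 and 2.93 at 24 months, and fell by 2.81 as counted and 0.63 with the offset. Ecsit, another factor of the same assembly complex, measured 10.8, 10.8 and 10.1 CPM at 3 months and 31.9, 36.1 and 41.8 at 24 months and rose by 1.79 and 0.36. At 12 months 1 of the 16 rose and none fell (all genes, 6.3% and 8.87%). Ndufab1, the subunit outside the naming pattern, measured 47.5, 37.0 and 38.2 CPM at 3 months, 48.9, 56.7 and 53.6 at 12 months, and 69.2, 63.6 and 72.1 at 24 months, and rose by 0.74 at 24 against 3 months as counted and 3.03 with the offset. Of 11 regulators of mitochondrial biogenesis 3 were higher and 7 lower as counted at 24 months (median -1.42), and none higher and 4 lower with the offset (median -0.09). Gabpa, the DNA-binding subunit of GABP, fell by 3.33 as counted and 0.46 with the offset. Esrra, an ERR receptor, rose by 2.26 as counted and was at -0.04 with the offset, not called.

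Promoter letters were compared to describe what the members share beyond their names. RefSeq windows from 250 bases before to 50 after the start site (build GRCm38.p6) matched 32 of the 37 members by symbol. Those without an entry include Ndufa2, Ndufa4l2, Ndufb9 and Ndufs1. The members' windows had a median GC content of 59.0%, and all 32851 windows 52.7%. AAGATGG, the core letters of a YY1 site, stood in 7 of 32 members (21.9%) on either strand, and in 6.34% of all windows. In 5 of the 7, all but Ndufa3 and Ndufs7, every base of the window from the ATG of these letters on equals the annotated coding sequence from its start codon. In Ndufa3 15 of 25 positions were equal and in Ndufs7 18 of 23. The 30 bases around each match are shown 5′ to 3′ with those letters in capitals, since they place the match at the start of translation.
Ndufa3, chr7:3617385-3617414, plus strand: cgccaagaacAAGATGGccgggagtaagta
Ndufa9, chr6:126849096-126849125, minus strand: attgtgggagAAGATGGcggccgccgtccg
Ndufb8, chr19:44555393-44555422, minus strand: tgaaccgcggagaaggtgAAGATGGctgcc
Ndufc1, chr3:51408914-51408943, minus strand: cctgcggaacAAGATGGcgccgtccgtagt
Ndufs4, chr13:114388045-114388074, minus strand: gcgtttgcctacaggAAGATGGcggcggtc
Ndufs6, chr13:73328433-73328462, minus strand: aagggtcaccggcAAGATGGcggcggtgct
Ndufs7, chr10:80249463-80249492, plus strand: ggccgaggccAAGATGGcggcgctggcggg
These letters overlap the coding sequence, and 17 of the 37 coding sequences begin with ATGGCG. As counted at 24 against 3 months Ndufs7 and Ndufb8 were higher, Ndufs4 was lower, and Ndufa3, Ndufa9, Ndufc1 and Ndufs6 were not called. With the offset Ndufb8, Ndufs4, Ndufa9 and Ndufc1 were higher, Ndufa3 and Ndufs6 lower, and Ndufs7 was not called. At 12 against 3 months Ndufa3, Ndufa9, Ndufc1 and Ndufs6 rose as counted, and Ndufa9, Ndufc1 and Ndufs4 with the offset.

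TGCGCA, the repeated core of the NRF1 site, stood in 10 of 32 members (31.2%) and in 7.76% of all windows. GCATGCG, letters from the centre of the full NRF1 site, stood in 3 members, Ndufa6, Ndufa8 and Ndufa11 (9.4% against 3.58%). In Ndufa8 and Ndufa11 the matches on both strands overlap. The Ndufa11 window from base -250 to base 30 after the start is printed as an example, with these letters in capitals.
Ndufa11, chr17:56717512-56717791, plus strand: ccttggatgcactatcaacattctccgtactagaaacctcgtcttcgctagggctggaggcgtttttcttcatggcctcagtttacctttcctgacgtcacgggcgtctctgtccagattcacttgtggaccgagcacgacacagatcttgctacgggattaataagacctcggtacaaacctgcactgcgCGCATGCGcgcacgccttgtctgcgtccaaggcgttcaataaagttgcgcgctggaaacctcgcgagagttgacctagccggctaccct
CCGGAAG, an ETS site of the kind GABP binds, stood in 12.5% of members and 8.86% of all windows, GGGCGG (a GC box) in 43.8% and 35.66%, CCAAT in 31.2% and 37.41%, and TATAAA in 12.5% and 13.62%. TCAAGGTCA, an ERR site, was in no member window and in 0.42% of all. All motifs were searched on both strands. A match is a match of letters only.

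Markers of other cell types moved with age beside these genes, and their part in the results was not tested. Counts are of genes called as counted, and those with the offset follow for 24 against 3 months. Over all genes 6.3% were higher and 8.87% lower at 12 against 3 months as counted. At 24 against 3 months these shares were 38.2% and 44.6%, and 29% and 27.2% with the offset. The summed level of 10 heart muscle markers, from a tissue rich in complex I, lay between 347 and 612 CPM in the 3-month mice, between 333.6 and 790.3 in the 6-month mice, between 651.6 and 756.6 in the 12-month mice and between 716.5 and 1154 in the 24-month mice. At 12 against 3 months 5 of the 10 were higher and 1 lower, and at 24 against 3 months 6 and 1 (1 and 2 with the offset). The 6-month range spans that at 12 months. White fat markers, 6 genes, summed to 78.4-99.1 CPM in the youngest mice, 56.1-279 at 6 months, 117-209 at 12 months, with 3 higher and none lower, and 197-324 at 24 months, with the same counts (1 and none with the offset). The 6-month mice spread over the ranges of both 3 and 12 months. Brown fat markers, 6 genes of which 4 were tested, summed to 5.10-9.22 CPM at 3 months, 6.245-10.1 at 6 months, 13.5-27.1 at 12 months, with 3 higher and none lower, and 6.76-26.8 at 24 months, with 1 higher (2 higher and 1 lower with the offset). Ucp1, which defines brown fat, stood at 0.0827, 0.132 and 0.21 CPM in the 3-month mice and 0.130, 4.70 and 3.21 in the 12-month mice. The first of the latter lay within the range of the former. For the other tested markers of brown fat, Cidea, Cox8b and Cox7a1, every 12-month mouse was above every 3-month mouse. Skeletal muscle markers, 9 genes of which 6 were tested, summed to 11.1-15.4 CPM at 3 months, 7.86-16.3 at 6 months, 17.7-28.6 at 12 months, with none called, and 27.7-383 at 24 months, with 4 higher (2 with the offset). Myh4, which defines fast muscle, had 0 reads at 3 and 12 months. The top of the 24-month range was mouse 3, in which Acta1 stood at 196 CPM, against 0.576 and 0.800 in mice 1 and 2.

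Among the lung's own cells, the 8 markers of alveolar type 2 cells summed to 25280-29880 CPM in the youngest mice, 26690-30300 at 6 months, 36690-39990 at 12 months, with 1 higher, and 38370-45890 at 24 months, with 5 higher and 2 lower (4 and 3 with the offset). The 8 plasma cell markers summed at the 4 ages to 654-736, 838-1215, 2074-2616 (5 higher) and 3822-5990 CPM, the last with all 8 higher and a median log2 difference of 3.89 (7 higher and 2.78 with the offset). The 9 alveolar macrophage markers summed to 787-971, 808-826, 747-1205 (1 lower) and 511-749 CPM, the last with 2 higher and 5 lower (1 and 6 with the offset). The 8 endothelial markers summed to 3339-3641, 3469-3985, 3375-4044 (none called) and 6462-13860 CPM, the last with 3 higher and 5 lower (2 and 4 with the offset). Each such sum follows its most abundant genes. Vwf alone, of the endothelial markers, measured 443, 627.5 and 650.5 CPM at 3 months and 2988, 5749 and 8785 at 24 months. The 8 club and ciliated cell markers summed to 24450-35050, 29340-38070, 33160-41010 (5 higher) and 18450-46590 CPM, the last with 4 higher and 3 lower (1 and 2 with the offset).

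The authors' deposited table called 17 members higher and 10 lower at 24 against 3 months, 26 higher and 1 lower at 12 months, and none at 6 months, at an adjusted p of 0.05. Of the 35275 genes listed, the authors' deposited table called 6448 higher and 7016 lower at 24 months, 2343 and 2310 at 12 months, and 16 and 4 at 6 months. The number of genes that the authors tested is not given here.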

How the data were processed

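Lungs of 12 mice, 3 per age, were profiled by poly(A) RNA-seq. Per the file headers, the deposited table gives raw read counts and FPKM per library, the gene length in bases (another unit, used by the authors for FPKM), and for each age against 3 months the authors' mean signal, log2 fold change, p-value and adjusted p-value; the deposited signal was not used. Per the submitters' processing notes, TopHat, STAR 2.5 and HTSeq 0.6.1 and build mm10 were used. The sources used here give neither the role of each tool, nor strandedness, nor the tool behind the authors' tests.

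Counts were filtered with filterByExpr, scaled with TMM and tested with the edgeR 4.0.16 quasi-likelihood F test (robust, all 12 libraries, R 4.3.3), with Benjamini-Hochberg adjustment over 16042 genes and a threshold of 0.05. Intervals are SE or SD. The offset was a smooth (mgcv 1.9.3, basis size 40) of each library's counts on GC content (GENCODE M21) and gene length, fitted on genes with mean CPM of at least 1; 15949 genes had GC content. DESeq2 1.42.0, limma 3.58.1, other filters, a block on mouse number, and leaving out each mouse were alternatives. Single values per library were compared with exact two-sided permutation tests. The series text says that the mice were analysed independently, and p-values measure the spread between these mice. The scripts were tested on simulated data.

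Members follow the naming rule. Named with values are the core subunits, apart from a result that is not reported here, Ndufa4, Ndufa4l2 and up to 8 called members with the largest fold each way per comparison, and up to 4 genes of every other list by p at 24 against 3 months. Defining markers, the markers named beside them, Vwf, Ndufab1, Ndufa2 and other members given values outside this rule were chosen after their values were seen. So was the shortening of 2 promoter motifs to their cores. Members and lists were chosen with earlier results of these data known. Mouse numbers did not pair the samples.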

Additional observations from a re-analysis of the deposited data

How the results depend on the processing

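The counts at 24 against 3 months (28 called), 24 against 12 months (29) and 6 against 3 months (0) stayed within 1.5 times under RLE scaling, DESeq2, limma, other filters, the offsets and leaving out any 1 mouse. At 24 against 3 months leaving out a mouse gave 26 to 28 members (all genes, 78.6% to 81.1%), and 25 to 27 with the offset (48.6% to 54.2%). At 24 against 12 months these ranges were 27 to 29 (75.8% to 77.8%) and 22 to 26 (36.1% to 42.1%). The split into higher and lower did move with the offset, from 17 and 11 to 10 and 16 at 24 against 3 months.

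The count at 12 against 3 months did not hold: 15 called (all genes, 15.2%), 26 with DESeq2 (21.8%) and 9 with the offset on GC content and length (18.4%). When 1 mouse was left out it was 0 to 23, and over these fits 1.86% to 21% of all genes were called. When this was done with the offset it was 3 to 9. Without 3-month mouse 1, 2 or 3 these last counts were 9, 3 and 4, beside 14.3%, 5.62% and 8.6% of all genes. Without 12-month mouse 1, 2 or 3 they were 8, 5 and 6, beside 13.5%, 10.8% and 13%. In a fit of the 9 libraries of 3, 6 and 12 months, added after seeing the data, 32 were called (31 higher and 1 lower, beside 36.1% of all genes). With the offset this fit called 14, beside 29.7% of all genes. The cause was not tested. The share of reads on members at 24 against 3 months, 0.0079 percentage points, was -0.0441 as FPKM.

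With the offset on GC content and length the log2 difference changed sign in 12 of the 37 members at 24 against 3 months (9 of them called as counted), 13 at 12 against 3 (4 called), 12 at 6 against 3 (none called) and 13 at 24 against 12 (7 called). Among the called differences that the naming rule covers these were, with their values under the offset, at 24 against 3 months Ndufb7 (-0.26), Ndufa11 (-0.47), Ndufs4 (0.78), Ndufv2 (1.09) and Ndufs8 (-0.0433), at 12 against 3 months Ndufc2 (-0.0053), and at 24 against 12 months Ndufb7 (-0.60), Ndufa13 (-0.52), Ndufs4 (0.11) and Ndufv2 (0.38). Of the other alternatives for single members, 376 kept direction and side of the threshold and 34 lost the threshold, 27 of them at 12 against 3 months, including 16 without 3-month mouse 2 or 3. The shares of all genes that changed sign with the offset are not given here.

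Mouse numbers did not pair the samples over all ages. Over 18 same-numbered pairs the correlation of deviations from the group means had a median of -0.05, and 4 were over 0.1. Between 3 and 6 months, however, the same-numbered pairs were at 0.0703, 0.120 and 0.186. All other pairs of these 2 ages lay below them, from -0.126 to -0.00197. With mouse number as a replicate block, 28 members were called at 24 against 3 months, 10 at 12 against 3, 0 at 6 against 3 and 29 at 24 against 12. The shares of all genes called were 81.8%, 9.89%, 0% and 78.8%. With the block and the offset together the member counts were 25, 9, 0 and 25, beside 54.9%, 16.3%, 0.00627% and 40.6% of all genes. Depth, 14720869 to 21244361 gene reads, limits Ndufb2 most, at 0.351 to 1.15 CPM at 24 months, and 3 mice per age limit every test.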

Other observations

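At 12 against 3 months, where 6.3% of all genes were higher and 8.87% lower, 6 of 16 nuclear subunits of complex V, the ATP synthase, rose and none fell. For complex III the count was 4 of 9, for complex IV 1 of 10 and for complex II 1 of 4, with none lower. The medians were 0.59, 0.70, 0.52 and 0.26 on the log2 scale, beside -0.02 for all genes. With the offset on GC content and length, in the same order, 3, 2, 3 and 1 rose, and 2 of complex IV fell, beside 9.05% and 9.35% of all genes. At 24 against 3 months 9 of 16 subunits of complex V were higher and 4 lower as counted (38.2% and 44.6% of all genes), and 4 and 7 with the offset (29% and 27.2%).

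At 24 against 3 months 82.8% of all genes were called as counted, and so were 7 of 9 subunits of complex III, 4 higher and 3 lower. Uqcrc1 and Uqcrc2, its paired core proteins, differed in sign as counted: Uqcrc1 rose from 108, 88.5 and 86.0 to 404, 479.5 and 1278 CPM, by 2.93 ± 0.36 (SE), adjusted p = 2.47e-06, and Uqcrc2 fell from 91.0, 70.4 and 84.1 to 33.5, 28.3 and 18.9 CPM, by 1.60 ± 0.23 (SE), adjusted p = 8.06e-06. With the offset Uqcrc1 was higher by 1.07 and Uqcrc2 was not called (0.23). In complex II, Sdhc, a membrane anchor, rose by 1.19 as counted and 2.18 with the offset, while Sdha, the flavoprotein, fell by 1.19 as counted and was at -0.16 with the offset, not called. In complex IV, Cox4i1 measured 166, 104 and 119 CPM at 3 months and 486, 509 and 1296 at 24 months and rose by 2.55 as counted and 1.00 with the offset. Mouse 3 of 24 months was the highest of its age in 22 of the 37 Nduf genes and the lowest in 8.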
